A study of Mus musculus with 8 samples.

Results

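The cytosolic ribosomal protein genes are the genes for the proteins of the large and small ribosomal subunits outside mitochondria. They were taken from the count table by symbol: Rpl or Rps with a number and an optional a, x, y or l, together with Rplp0, Rplp1, Rplp2 and Rpsa. The rule found 84 of 53647 genes, 52 of the large and 32 of the small subunit, and it leaves out the rows marked as pseudogenes and the kinases that phosphorylate Rps6. Of the 84, 81 passed the filter on low counts and were tested. GENCODE M21 (build mm10) annotates 81 of the 84 as protein coding and Rpl6l, Rpl32l and Rps4l as pseudogenes. The genes lie on 19 chromosomes, 14 of them on chromosome 7 and 4 on the X chromosome (Rpl10, Rpl36a, Rpl39 and Rps4x).

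The libraries were made from polyA RNA of C57BL/6 mouse macrophages of a leukemia, sorted after 12 h of culture. In 4 libraries the macrophages had been in culture together with mesenchymal stromal cells (E-Mac, for educated macrophages), and in 4 they had been cultured alone (Mac). Mesenchymal stromal cells are fibroblast-like cells found in bone marrow, and the comparison asks which transcripts differ in the sorted macrophages after co-culture. The labels name neither the leukemia model nor the markers of the sort, and give no animal or culture of origin for a library. A p-value here therefore reflects how far these 8 samples scatter, and that scatter may be technical.

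Each ribosome needs its proteins in nearly equal numbers, and cells therefore make most of them together. In mammals their mRNAs begin with a C followed by a run of pyrimidines, the TOP motif (5′ terminal oligopyrimidine tract), through which mTORC1 and the RNA-binding protein Larp1 set how much of them is translated. Ribosomal protein mRNAs are long-lived and abundant, and a few of the proteins have a second, closely related copy that is made mainly in muscle, testis or after p53 activation.

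Ribosomal protein transcripts were lower in E-Mac as a group, by a modest amount and in both subunits. They took 1.76, 1.47, 1.86 and 1.64% of the counts in E-Mac 1 to 4, against 2.29, 2.42, 2.47 and 2.55% in Mac 1 to 4. Every E-Mac library lay below every Mac library, and E-Mac 2 was the lowest of the 8. The share averaged 1.68% ± 0.167 in E-Mac and 2.43% ± 0.110 in Mac (SD, n = 4 each).

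Of the 81 genes tested, 65 (80.2%) fell in E-Mac, 1 rose (1.23%) and 15 did not pass an adjusted p of 0.05 (quasi-likelihood test of edgeR, with p adjusted after Benjamini and Hochberg over all genes tested). Among all 13412 genes tested, 28.8% fell and 29.5% rose. In 58 of the 81 the 4 E-Mac libraries all lay below the 4 Mac libraries, which was so for 27.2% of all genes tested. Fitted values were negative for 76 genes and positive for 5. The median log2 fold change, E-Mac over Mac, was -0.39 (middle 50% from -0.49 to -0.24), against -0.0030 over all genes tested. Single genes ranged from -1.14 (Rpl3l) to 0.55 (Rps27l). In bulk RNA a smaller number of cells with high levels and less RNA in each cell cannot be told apart.

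**Figure D1:**
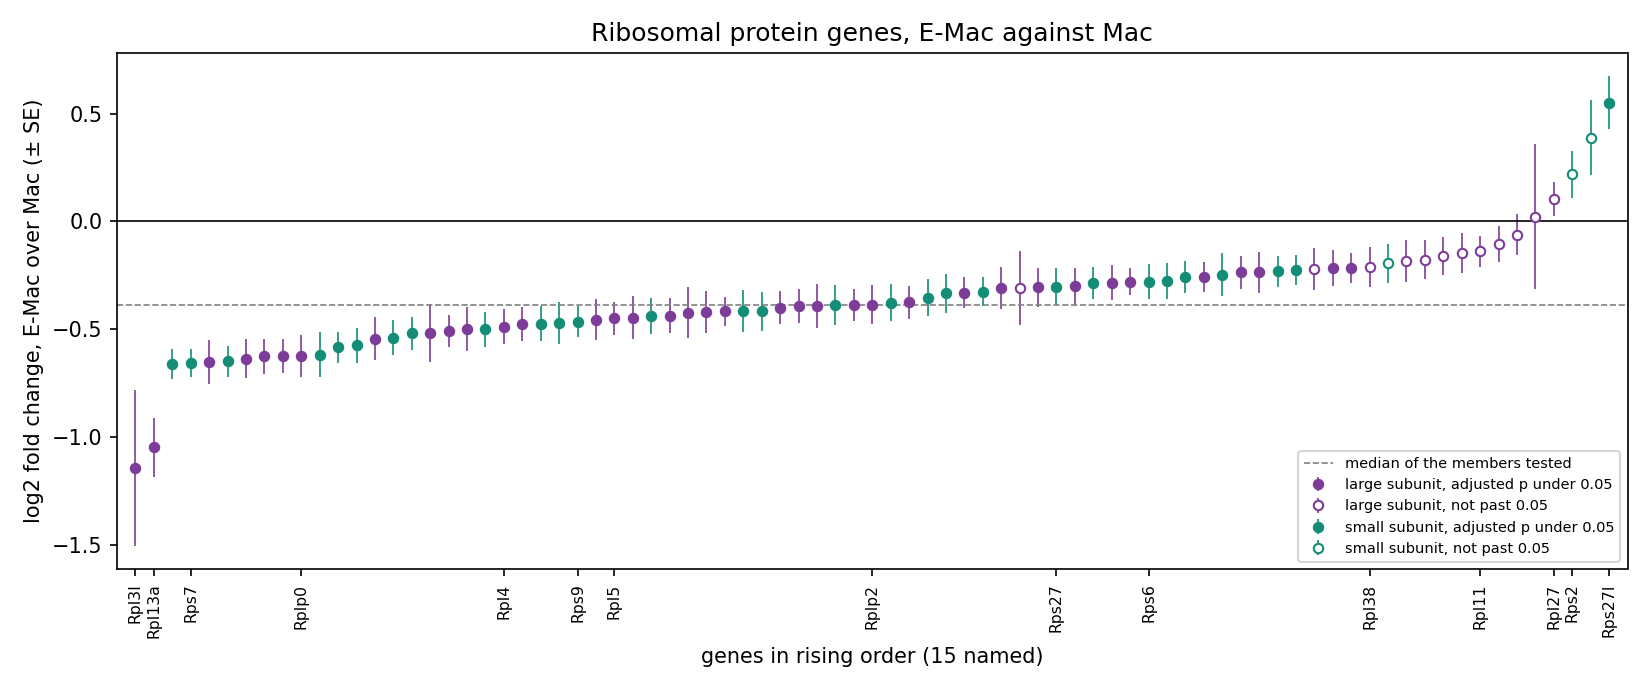
Log2 fold change, E-Mac over Mac, of the 81 ribosomal protein genes tested, in rising order, with 15 of them named (points, with bars of 1 standard error; purple for the large and green for the small subunit; filled where the adjusted p was under 0.05). The points form a band around the dashed median of -0.39, with Rpl3l and Rpl13a below it and Rps2 and Rps27l above it.

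Both subunits had close medians. Of the 49 large subunit genes tested 37 fell and none rose, with a median log2 fold change of -0.39. Of the 32 small subunit genes 28 fell and 1 rose, with a median of -0.38. The difference of medians, large minus small subunit, was -0.0036, less than its spread of 0.067 between replicates; it was not tested. Summed over genes, the large subunit averaged 9763 ± 1004 CPM in E-Mac and 12661 ± 682 in Mac, and the small subunit 7977 ± 695 CPM in E-Mac and 10566 ± 515 in Mac (SD, n = 4 each). CPM are counts scaled to 1000000 per library, after TMM normalisation over tested genes. The ratio of large to small subunit counts was 1.25, 1.20, 1.23 and 1.20 in E-Mac 1 to 4, against 1.19, 1.21, 1.19 and 1.20 in Mac 1 to 4. E-Mac 1 and 3 had the highest ratios, while E-Mac 2 and 4 fell among the Mac libraries.

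**Figure D2:**
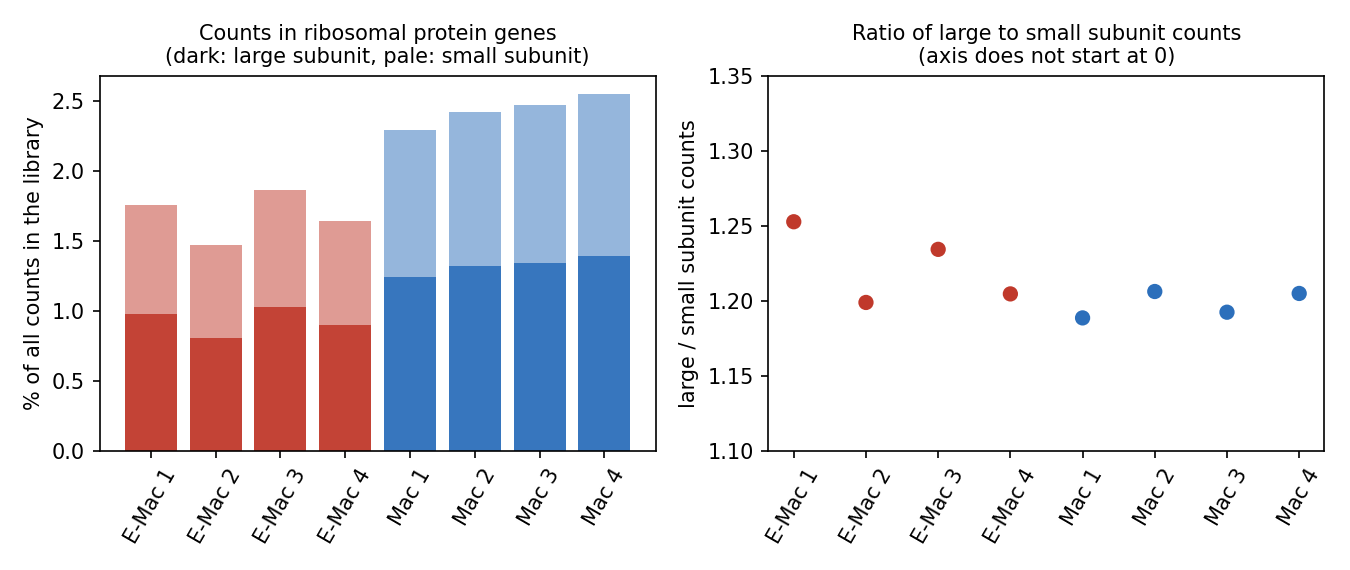
Left, percent of all counts of a library in ribosomal protein genes (bars, dark for the large and pale for the small subunit). Right, the ratio of large to small subunit counts (points, axis from 1.1). Shares run from 1.47 to 1.86% in the 4 E-Mac libraries and from 2.29 to 2.55% in the 4 Mac libraries, while the ratios of the groups overlap.

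Levels of other cells' markers differed between and within the groups. Of all genes tested, 29.5% rose and 28.8% fell. The 21 granulocyte markers summed to 12176, 19591, 12904 and 17109 CPM in E-Mac 1 to 4 and to between 34884 and 38706 CPM in Mac, where 14 of the 21 fell and 2 rose in E-Mac and none was at 0. E-Mac 2 and 4, which had the lowest ribosomal protein shares, had the highest granulocyte sums of the E-Mac libraries. Of the 22 stromal markers 14 could be tested, of which 11 rose and 1, the fibronectin gene Fn1 (named after its value was seen), fell. Without Fn1, which macrophages also make, they summed to 98.8, 484, 75.6 and 540.2 CPM in E-Mac 1 to 4, against 23.1 to 26.0 CPM in Mac. Col6a2, Dcn, Lum, Pdgfra and Mfap5 averaged under 1 CPM in both groups. The 20 macrophage core markers, of which 14 rose and 3 fell, summed to 15525 to 20379 CPM in E-Mac and 17968 to 19399 CPM in Mac.

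Markers of red cells and lymphocytes were far less abundant. The counts of calls below stand beside 29.5% of all genes tested that rose and 28.8% that fell. The 9 erythroid markers summed to 0.135 to 0.503 CPM in E-Mac and 48.3 to 65.5 CPM in Mac, and the 5 that could be tested all fell. The 10 T and NK cell markers summed to 3.92 to 5.46 CPM in E-Mac and 15.9 to 21.1 CPM in Mac (3 of 4 tested fell, Cd3e at 0 in every library), and the 10 B cell markers to 21.7 to 34.9 CPM in E-Mac and 18.6 to 21.9 CPM in Mac (5 of 6 tested rose, 1 fell, Igll1 at 0). The part of these markers in the ribosomal protein result was not tested. Without E-Mac 2 and 4, 60 ribosomal protein genes fell, all 60 of them among the 65, and the median log2 fold change was -0.27. That fit kept only E-Mac 1 and 3 on the E-Mac side, and its share over all genes is not reported here.

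Of the ribosome's stalk, where elongation factors dock, all 3 proteins had fewer transcripts in E-Mac. Rplp0, the base of the stalk, stood at 758, 623, 815 and 648 CPM in E-Mac 1 to 4, against 971, 1102, 1107 and 1205 CPM in Mac 1 to 4. The groups were well apart, and the log2 fold change was -0.62 ± 0.098 (SE, n = 4 each; adjusted p = 0.00011). Rplp2, an acidic stalk protein, averaged 241 ± 25.2 CPM in E-Mac and 315 ± 28.6 in Mac (log2 fold change -0.39 ± 0.089, adjusted p = 0.0022). Its partner Rplp1 had 349, 285, 390 and 318 CPM in E-Mac 1 to 4, against 379, 399, 415 and 469 CPM in Mac 1 to 4. E-Mac 3 overlapped the Mac libraries, and the log2 fold change was -0.31 ± 0.099 (adjusted p = 0.016). The call for Rplp1 was lost with Mac 4 left out (adjusted p = 0.065), with E-Mac 2 left out (0.058) and with E-Mac 2 and 4 both left out (0.060).

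Among the other large subunit proteins, Rpl13a had the largest fall of a gene above 5 CPM in both groups. Human RPL13A can leave the ribosome of monocytes treated with interferon-gamma and silence inflammatory mRNAs. Rpl13a stood at 9.04, 6.40, 9.77 and 8.41 CPM in E-Mac 1 to 4, against 15.7, 18.2, 18.6 and 17.0 CPM in Mac 1 to 4. The groups lay far apart, with a log2 fold change of -1.05 ± 0.14 (adjusted p = 2.2e-05). The level was low for a ribosomal protein gene: per kb of its shortest coding transcript, Rpl13a averaged 17.0 CPM in E-Mac and 35.1 in Mac, and 70.0% of its 50-base windows occur in transcripts of other genes. How reads that match several copies were counted is not stated in the labels or processing notes, and its part in this level was not tested.

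Rpl21 and Rpl39, structural proteins of the large subunit, were also among the largest falls. Rpl21 averaged 75.6 ± 12.0 CPM in E-Mac and 119 ± 8.29 in Mac (log2 fold change -0.65 ± 0.10, adjusted p = 0.00012). Rpl39, a small protein that lines the exit tunnel, averaged 85.8 ± 11.2 CPM in E-Mac and 133 ± 7.18 in Mac (-0.64 ± 0.091, adjusted p = 4.8e-05). Neither overlapped between groups. Rpl4, an abundant core protein, stood at 743, 604, 759 and 674 CPM in E-Mac 1 to 4, against 939, 1005, 963 and 997 CPM in Mac 1 to 4. The groups were separate (-0.49 ± 0.081, adjusted p = 0.00018).

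Rpl5 and Rpl11, which travel with the 5S rRNA and bind the p53 regulator Mdm2, differed in their calls. Rpl5 fell, at 300.3 ± 27.0 CPM in E-Mac and 410.2 ± 17.9 in Mac (log2 fold change -0.45 ± 0.077, adjusted p = 0.00022). Rpl11 averaged 263 ± 22.1 CPM in E-Mac and 289 ± 11.7 in Mac and did not pass the threshold (-0.14 ± 0.073, adjusted p = 0.12). It did pass with E-Mac 3 left out (adjusted p = 0.033). E-Mac 3 had the highest Rpl11 level of the E-Mac libraries, so leaving it out enlarged the fall by construction. Rpl11 also passed with upper-quartile factors (0.011), with library size only (0.0046) and with a filter of 10 CPM in 4 libraries (0.040). The difference between the 2 genes was not tested. Rpl38, which in mice favours translation of Hox mRNAs, averaged 81.0 ± 10.4 CPM in E-Mac and 93.9 ± 7.81 in Mac (-0.21 ± 0.093, adjusted p = 0.068). It passed the threshold when Mac 1 (adjusted p = 0.039) or E-Mac 3 (0.010) was left out. Mac 1 had the lowest Rpl38 level of the Mac libraries and E-Mac 3 the highest of the E-Mac libraries. Leaving out either therefore enlarged the fall by construction. Rpl38 also passed with upper-quartile factors (0.010), library size only (0.0046) and the 10 CPM filter (0.033). Rpl24 was low, at 4.63 ± 0.711 CPM in E-Mac and 5.75 ± 0.701 in Mac, and was not called (-0.31 ± 0.17, adjusted p = 0.14). Other genes share 81.8% of its windows.

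Rps7 and Rps15 were among the largest falls in the small subunit. Rps7, which also binds Mdm2, stood at 221, 212, 242 and 219 CPM in E-Mac 1 to 4, against 333, 359, 354 and 361 CPM in Mac 1 to 4. The E-Mac libraries lay close together and far below the Mac libraries, with a log2 fold change of -0.66 ± 0.066 (adjusted p = 2.1e-06). Rps15, which lies near the decoding site, averaged 257 ± 19.3 CPM in E-Mac and 404 ± 17.0 in Mac (-0.65 ± 0.072, adjusted p = 5.0e-06), and its groups did not overlap either.

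Rpsa, a small subunit protein also known as the laminin receptor, stood at 478, 373, 515 and 394 CPM in E-Mac 1 to 4, against 605, 686, 668 and 742 CPM in Mac 1 to 4. E-Mac 2 and 4 were the low E-Mac libraries, and the groups did not overlap (-0.62 ± 0.10, adjusted p = 0.00022). Rps9, which helps form the mRNA entry site, averaged 687 ± 36.1 CPM in E-Mac and 948 ± 49.2 in Mac (-0.46 ± 0.071, adjusted p = 9.4e-05). Per kb of each gene's shortest coding transcript, Rps9 had the highest level of the ribosomal protein genes tested. It stood at 1438 CPM per kb in E-Mac and 1984 in Mac, and only 8.49% of its windows are shared with other genes. Rps19, mutated in human Diamond-Blackfan anaemia, averaged 199 ± 29.9 CPM in E-Mac and 275 ± 16.6 in Mac (-0.47 ± 0.097, adjusted p = 0.0010).

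Rps6, Rps3 and Rps27a fell by less. Rps6, the substrate of the S6 kinases downstream of mTORC1, averaged 284 ± 30.3 CPM in E-Mac and 344 ± 13.0 in Mac (-0.28 ± 0.080, adjusted p = 0.0088). Rps3, which lies at the mRNA entry channel and also binds NF-kB, averaged 467 ± 38.8 CPM in E-Mac and 559 ± 19.4 in Mac (-0.26 ± 0.074, adjusted p = 0.0090). Rps27a, made as a fusion with ubiquitin, averaged 251 ± 16.1 CPM in E-Mac and 315 ± 10.4 in Mac (-0.33 ± 0.068, adjusted p = 0.0010). In all 3 the groups did not overlap. All 4 genes on the X chromosome fell, with Rps4x at 434 ± 47.7 CPM in E-Mac and 631 ± 19.4 in Mac (-0.54 ± 0.082, adjusted p = 8.5e-05), and Rpl10, a protein joined late in subunit assembly, at 272 ± 32.0 CPM in E-Mac and 335 ± 18.4 in Mac (-0.30 ± 0.086, adjusted p = 0.0086).

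The exception was Rps27l, a copy of Rps27 that p53 switches on. It stood at 49.0, 37.3, 58.8 and 45.1 CPM in E-Mac 1 to 4, against 34.5, 32.1, 33.8 and 29.5 CPM in Mac 1 to 4. Every E-Mac library lay above every Mac library, although E-Mac 2 did so by little, and the log2 fold change was 0.55 ± 0.12 (adjusted p = 0.0016). It was the gene called higher in every alternative run. Its parent Rps27 fell, at 309 ± 20.4 CPM in E-Mac and 381 ± 40.1 in Mac (-0.30 ± 0.084, adjusted p = 0.0075).

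Rps2 and Rpl27, picked after their values were seen because they were the most positive coding genes after Rps27l above 100 CPM, did not pass the threshold. Rps2, a protein of the mRNA entry site, stood at 290, 216, 313 and 239 CPM in E-Mac 1 to 4, against 202, 231, 227 and 249 CPM in Mac 1 to 4. E-Mac 1 and 3 lay above the Mac libraries and E-Mac 2 and 4 among them (log2 fold change 0.22 ± 0.11, adjusted p = 0.11). Leaving out E-Mac 2 made Rps2 a call, at 0.32 (adjusted p = 0.013), as did dropping the filter on low counts, at 0.25 (adjusted p = 0.025). Leaving out E-Mac 2 and 4 together gave 0.41 (adjusted p = 6.2e-06). That fit kept only E-Mac 1 and 3, where Rps2 was highest, so a larger rise was fixed in advance. With library size only the log2 fold change of Rps2 was 0.075 (adjusted p = 0.58). Other genes share 76.8% of its windows. Rpl27 averaged 137.6 ± 8.75 CPM in E-Mac and 128 ± 12.5 in Mac (0.10 ± 0.080, adjusted p = 0.28). It was called higher with E-Mac 2 and 4 left out (0.18, adjusted p = 0.034) and had the opposite sign with library size only (-0.039, adjusted p = 0.69). E-Mac 2 and 4 also had the lower Rpl27 levels of the E-Mac libraries, so leaving them out raised the fold change by construction.

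**Figure D3:**
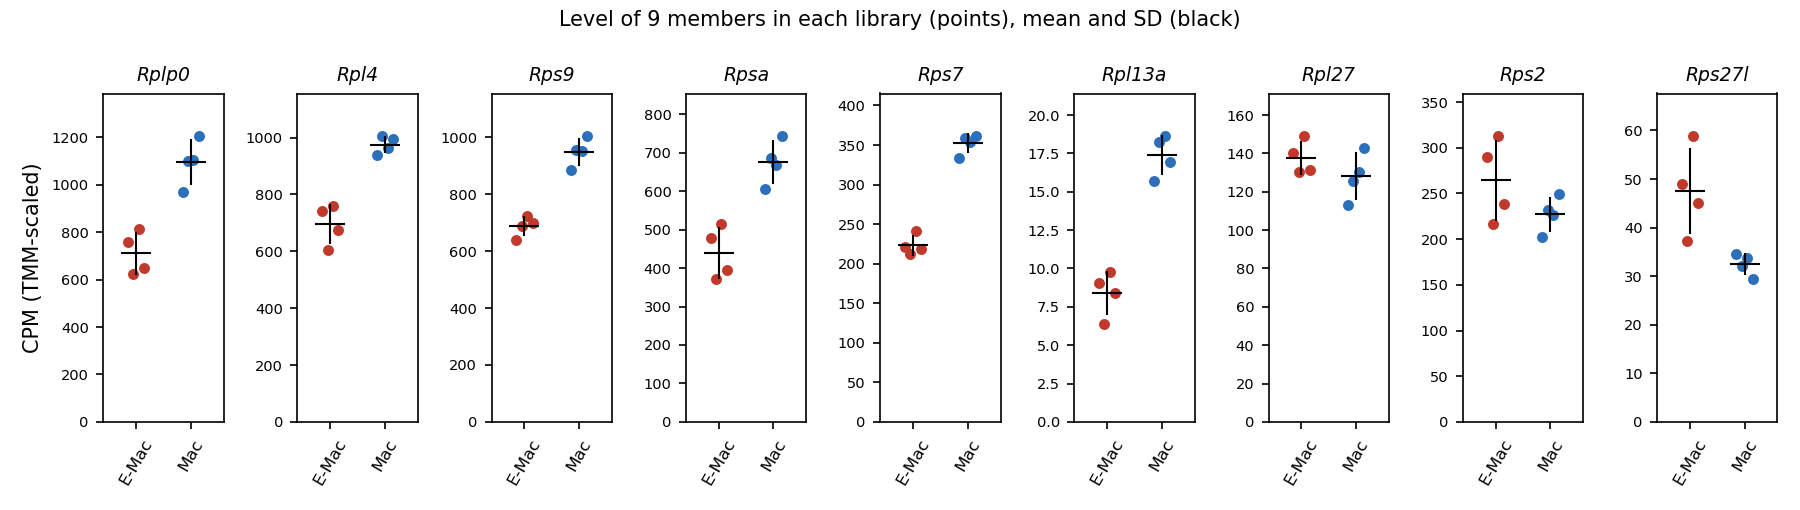
Level in CPM of 9 ribosomal protein genes in each library (points, red for E-Mac and blue for Mac, with mean and SD in black; axes start at 0). The 6 genes on the left have all E-Mac libraries below the Mac libraries, Rpl27 and Rps2 overlap, and Rps27l has all E-Mac libraries above.

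Copies were also set against their parents within each library, which needs no scaling between libraries. Rps27l had 17.4, 12.1, 18.5 and 13.7 counts per 100 counts of Rps27 in E-Mac 1 to 4, against 10.03, 7.85, 8.01 and 8.42 in Mac 1 to 4. All E-Mac libraries were higher (15.4 ± 3.003 in E-Mac and 8.58 ± 0.998 in Mac). The exact two-sided permutation test gave p = 0.0286, the smallest that 4 against 4 libraries allow, and 0.0429 after Benjamini-Hochberg adjustment over 6 pairs. The same p-values held for 3 more pairs. Rpl7l1, a copy of Rpl7, had 22.2 ± 1.47 counts per 100 of its parent in E-Mac and 10.4 ± 0.677 in Mac. Rps4l, annotated as a transcribed pseudogene, had 2.36 ± 0.179 per 100 of Rps4x in E-Mac and 1.25 ± 0.257 in Mac. Rpl22l1, which Rpl22 holds down in mice, went the other way, with 14.2 ± 1.147 per 100 of Rpl22 in E-Mac and 19.1 ± 2.07 in Mac.

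In the other pairs the groups overlapped. Rpl36al had 2.17 ± 0.341 counts per 100 of Rpl36a in E-Mac and 1.605 ± 0.648 in Mac (exact p = 0.20, adjusted 0.20). The muscle copy Rpl3l had 0.286 ± 0.169 per 100 of Rpl3 in E-Mac and 0.440 ± 0.0817 in Mac (exact p = 0.20, adjusted 0.20). Rpl3l itself had 4, 17, 12 and 16 counts in E-Mac 1 to 4, against 30, 22, 39 and 26 in Mac 1 to 4. It fell by 1.14 ± 0.36 on the log2 scale (adjusted p = 0.015), a call that did not hold without Mac 3 (adjusted p = 0.053), and averaged 0.860 CPM in E-Mac and 1.92 in Mac. The testis copies were at or near 0: Rpl10l had no count in any library, and Rpl39l had 0 to 2 counts in E-Mac and 0 to 6 in Mac.

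The parents followed the other genes. Rpl3, near the catalytic centre, averaged 328 ± 62.7 CPM in E-Mac and 439 ± 31.7 in Mac (-0.42 ± 0.12, adjusted p = 0.0081). Rpl22 averaged 125 ± 12.0 CPM in E-Mac and 163 ± 6.54 in Mac (-0.39 ± 0.076, adjusted p = 0.00069), and Rpl36a 75.3 ± 11.8 CPM in E-Mac and 101 ± 2.96 in Mac (-0.42 ± 0.097, adjusted p = 0.0022). Rpl36al averaged 1.63 CPM in both groups, and Rps4l 10.3 ± 1.65 CPM in E-Mac and 7.88 ± 1.72 in Mac (0.39 ± 0.17, adjusted p = 0.073). Rps4l became a call when 1 library was left out, be it E-Mac 2 (0.038 as adjusted p), E-Mac 4 (0.049), Mac 2 (0.046) or Mac 4 (0.043), and also without both E-Mac 2 and 4 (0.0065) and with no filter on low counts (0.038). E-Mac 2 and 4 had the lower Rps4l levels of the E-Mac libraries, and Mac 2 and 4 the higher ones of the Mac libraries. Leaving any of them out therefore raised the fold change by construction.

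**Figure D4:**
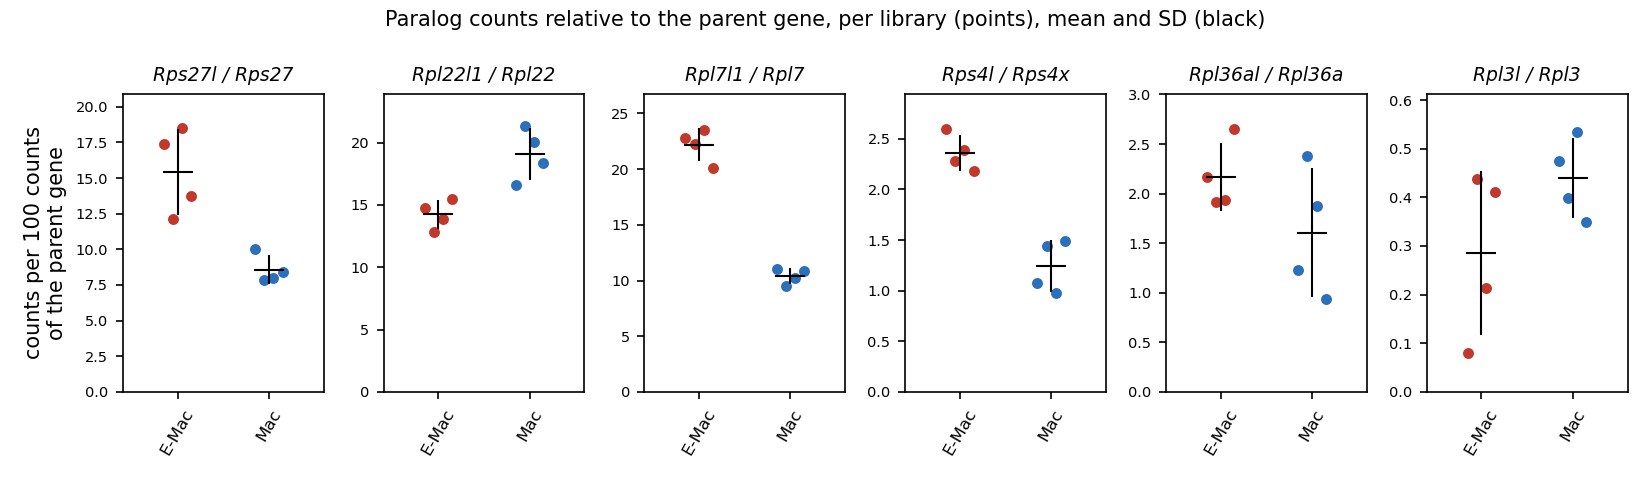
Counts of 6 copies per 100 counts of the parent gene in each library (points, red for E-Mac and blue for Mac, with mean and SD in black; axes start at 0). Rps27l, Rpl7l1 and Rps4l are higher and Rpl22l1 is lower in all E-Mac libraries, while the groups overlap for Rpl36al and Rpl3l.

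To see how the genes moved against each other, the fit was repeated with each library scaled to its summed ribosomal protein counts. On that scale 10 genes fell, 9 rose and 62 did neither. By construction it removes the common fall, so genes in both directions follow from the scaling. No share over all genes is given beside these counts. Rpl13a fell by 0.66 ± 0.12 (adjusted p = 0.00025), Rps7 by 0.27 ± 0.092 (adjusted p = 0.020) and Rplp0 by 0.24 ± 0.097 (adjusted p = 0.045) on the log2 scale, and Rpl21, Rps15, Rpl39, Rpl28 and Rpsa were also among the 10. Rps27l rose by 0.93 ± 0.11 (adjusted p = 2.8e-06), Rps2 by 0.60 ± 0.097 (adjusted p = 6.1e-05) and Rpl27 by 0.50 ± 0.090 (adjusted p = 0.00018), beside Rps4l, Rpl29, Rpl41, Rpl11, Rpl15 and Rpl18. These values are changes relative to the other ribosomal protein genes.

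Ribosomal protein genes have many processed pseudogenes, so that counts of single genes may depend on how reads shared with copies were assigned. In 54 genes more than 50% of the windows occur in transcripts of other genes. Of these 54, 43 fell and none rose (median log2 fold change -0.33), and of the 27 other genes tested 22 fell and 1 rose (-0.40). Pseudogene rows with Rpl or Rps symbols numbered 295. They held 3.77 to 3.96 counts per 100 ribosomal protein counts in E-Mac and 3.74 to 3.86 in Mac. Across the 79 coding genes tested, the fold change ran nearly flat against the share of such windows (Spearman's rho 0.17), against the mean level (-0.12) and against transcript length (-0.028). These are descriptions over genes of the same libraries.

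Runs of pyrimidines were more frequent near the annotated starts of these genes than near those of all promoters. A run anywhere in the window was counted, also before the start, so this was not a search for the TOP motif. RefSeq (GRCm38.p6) gave promoters for 62 of the 84 genes, 74 promoters in all. Within 25 bases on either side of the annotated start, a run of 8 or more C or T on the strand of the gene was present in 45.9% of these promoters, against 19.7% of all 32851 promoters. On the opposite strand the shares were 8.11% for the ribosomal protein genes and 21.6% for all. The run was in 43.9% of the promoters of genes that fell (57 promoters) and in 50% of those of the other genes tested (14 promoters). The motif CCGGAAG, the core bound by ETS factors, searched on both strands of 300 bases, was in 35.1% of their promoters and 8.86% of all promoters. It was in 31.6% of the promoters of genes that fell and 50% of the others. A match of letters is a description and not a site in use. The 30 bases around the first annotated start of 3 genes that fell and of Rps27l, which rose, are given 5′ to 3′ on the strand of the gene. They hold 15 bases before the start and 15 from it, with the longest run of C and T in capitals. Where runs tie in length, the first is in capitals. Others looked up in the same way are not shown. Of these, Rps15 and Rps24, which fell, had longest runs of 3 and 9, and Rps2 and Rpl27, which were not called, of 6 and 5. Rpl13a is at chr7:45128731-45128760 on the minus strand, Rpl28 at chr7:4792950-4792979 on the plus strand, Rps7 at chr12:28635939-28635968 on the minus strand and Rps27l at chr9:66946071-66946100 on the plus strand.
Rpl13a: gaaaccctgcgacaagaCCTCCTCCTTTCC
Rpl28: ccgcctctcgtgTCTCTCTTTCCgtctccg
Rps7: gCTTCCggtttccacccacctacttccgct
Rps27l: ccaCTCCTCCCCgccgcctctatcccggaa
The run has 11 bases in Rpl28, 5 in Rps7 and 9 in Rps27l. In Rpl13a it has at least 13, because it reaches the end of the bases shown. Long and short runs thus both stand among the genes that fell. In Rps27l the run lies wholly before the annotated start, outside the transcript. Rps7 has several runs of 5. The one in capitals lies before the start, while the last lies within the transcript.

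Ribosomal genes that the symbol rule does not take split in direction. Of 7 tested, 4 fell (57.1%) and 2 rose (28.6%), beside 28.8% and 29.5% of all genes tested. Rack1, a scaffold on the small subunit, averaged 506 ± 68.8 CPM in E-Mac and 680 ± 33.2 in Mac (log2 fold change -0.43 ± 0.093, adjusted p = 0.0015). Rpl22l1 averaged 17.8 ± 2.60 CPM in E-Mac and 31.2 ± 4.51 in Mac (-0.81 ± 0.13, adjusted p = 0.00016). Rpl7l1, whose product acts in ribosome assembly, averaged 99.9 ± 9.84 CPM in E-Mac and 62.5 ± 2.70 in Mac (0.68 ± 0.078, adjusted p = 7.3e-06).

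Most of the other mRNAs of the TOP class also fell. The list held 5 elongation factors, 7 initiation factors and other genes. Of 21 tested, 14 fell (66.7%) and 1, the elongation factor gene Eef1g (picked after its value was seen), rose (4.76%). The median log2 fold change of the list was -0.33. Over all genes tested, 28.8% fell and 29.5% rose. Of the 5 elongation factors 3 fell, and of the 7 initiation factors 5 fell and none rose. Eef1b2, the exchange factor that recharges the elongation factor eEF1A, averaged 146 ± 15.4 CPM in E-Mac and 239 ± 5.65 in Mac (-0.71 ± 0.078, adjusted p = 4.6e-06). The poly(A) binding protein gene Pabpc1 averaged 645 ± 40.6 CPM in E-Mac and 1006 ± 53.3 in Mac (-0.64 ± 0.074, adjusted p = 7.2e-06). Gas5, a noncoding TOP transcript that hosts small nucleolar RNAs, averaged 46.2 ± 3.49 CPM in E-Mac and 76.5 ± 7.48 in Mac (-0.73 ± 0.086, adjusted p = 9.2e-06).

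Most genes for making ribosomes rose. Of 49 tested ribosome biogenesis genes 36 rose (73.5%) and 2 fell (4.08%), with a median log2 fold change of 0.50. Over all genes tested, 29.5% rose and 28.8% fell. Heatr1 averaged 112 ± 11.6 CPM in E-Mac and 57.4 ± 4.65 in Mac (0.96 ± 0.087, adjusted p = 6.8e-07). Wdr43 averaged 57.2 ± 5.76 CPM in E-Mac and 32.9 ± 1.54 in Mac (0.80 ± 0.087, adjusted p = 4.3e-06), and Utp4 22.7 ± 2.64 CPM in E-Mac and 11.5 ± 0.387 in Mac (0.99 ± 0.11, adjusted p = 5.4e-06). All 3 act in early processing of the small subunit rRNA. Of 30 initiation factors outside the TOP list (median 0.28) 19 rose (63.3%) and 3 fell (10%). Together with the 7 in the TOP list, 19 of 37 rose and 8 fell (median 0.21). Eif6, which keeps the free large subunit from joining, averaged 115 ± 8.84 CPM in E-Mac and 60.4 ± 3.78 in Mac (0.93 ± 0.076, adjusted p = 2.5e-07). Eif2s1, the alpha subunit of eIF2, averaged 90.8 ± 10.02 CPM in E-Mac and 49.1 ± 3.91 in Mac (0.89 ± 0.089, adjusted p = 1.9e-06). The helicase gene Eif4a2 fell, at 192 ± 15.2 CPM in E-Mac and 359 ± 24.98 in Mac (-0.90 ± 0.078, adjusted p = 4.3e-07).

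**Figure D5:**
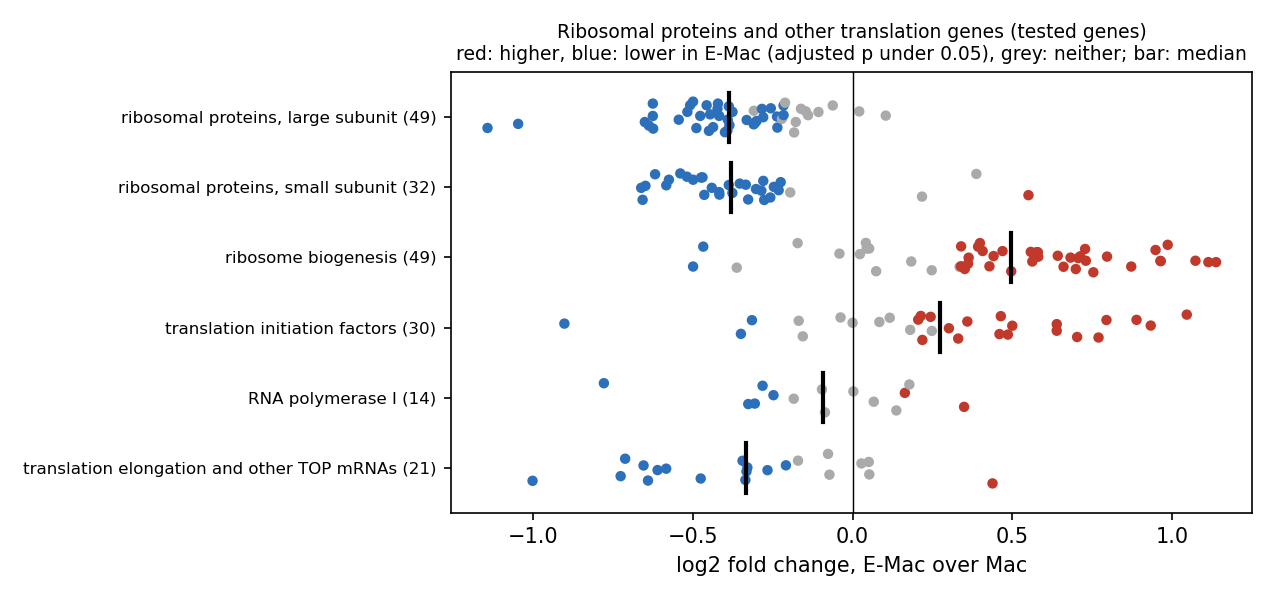
Log2 fold change, E-Mac over Mac, of each tested gene in 6 groups (points, red where called higher, blue where called lower and grey where neither; black bars, medians). The medians are -0.39 and -0.38 for the large and small ribosomal subunit, 0.50 for ribosome biogenesis, 0.28 for initiation factors outside the TOP list, -0.09 for RNA polymerase I and -0.33 for the TOP list, which holds 5 elongation and 7 initiation factors.

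RNA polymerase I, which transcribes the rRNA genes, showed no common direction. Of 14 genes (median -0.09) 5 fell (35.7%) and 2 rose (14.3%), beside 28.8% and 29.5% of all genes tested. The subunit gene Polr1e averaged 5.80 ± 0.826 CPM in E-Mac and 9.94 ± 1.06 in Mac (-0.78 ± 0.15, adjusted p = 0.00054), and the largest subunit, Polr1a, 46.2 ± 4.48 CPM in E-Mac and 57.0 ± 4.22 in Mac (-0.31 ± 0.086, adjusted p = 0.0079). The initiation factor gene Rrn3 averaged 36.1 ± 3.27 CPM in E-Mac and 28.3 ± 0.912 in Mac (0.35 ± 0.087, adjusted p = 0.0038).

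Among mTORC1 components, TOP regulators and the Myc network 11 of 22 rose (50%) and 7 fell (31.8%). Over all genes tested, 29.5% rose and 28.8% fell, so the share that fell was near that of all genes. Inhibitors of mTORC1 moved both ways. Ddit4 averaged 22.2 ± 3.42 CPM in E-Mac and 71.3 ± 4.71 in Mac (-1.68 ± 0.11, adjusted p = 2.0e-08), and Deptor 6.06 ± 1.83 CPM in E-Mac and 33.0 ± 1.43 in Mac (-2.44 ± 0.17, adjusted p = 5.1e-08). Sesn2 averaged 74.4 ± 11.5 CPM in E-Mac and 38.8 ± 0.597 in Mac (0.94 ± 0.10, adjusted p = 3.4e-06). Larp1 and Myc, picked after their values were seen for their known links to ribosomal protein genes, both rose (0.69 ± 0.080, adjusted p = 8.2e-06, and 1.03 ± 0.14, adjusted p = 2.6e-05). mRNA levels do not give the activity of mTORC1 or the rate of translation.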

How the data were processed

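PolyA RNA libraries of 4 E-Mac and 4 Mac samples were analysed. The table that the authors deposited holds raw read counts by gene symbol. Its processing, per the submitters' processing notes, used bcl2fastq, HISAT2, featureCounts, Subread and DESeq2 on mm10, with no versions named. How multi-mapping reads and strand were handled, and which annotation was used, is not stated in the sources used here. Of 53673 rows, 26 had names turned into dates (0.133 to 0.160% of counts) and were left out. Total counts ran from 13395172 to 15761884 in E-Mac and from 11664600 to 15581601 in Mac, with TMM factors of 0.931 to 0.971 in E-Mac and 1.03 to 1.07 in Mac. Any 2 replicates differed by more than sampling noise (chi-square over degrees of freedom of 4.85 or more).

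The test was the quasi-likelihood test of edgeR 4.0.16 (R 4.3.3) with the robust option, fitted on all 8 libraries after filterByExpr with a count of 10 and a total of 15 as minimum and TMM scaling, with Benjamini-Hochberg adjustment over 13412 genes, with calls at 0.05. The standard error is the fold change divided by the square root of F. The members, the lists and the choice of named genes were made with earlier results of these data known. Named were the 8 largest called changes each way without overlap, a list of well-studied members and copies, the 4 highest and 4 lowest by CPM, and 3 genes per pathway list by smallest adjusted p; some that the rule gives are not reported here. Windows of 50 bases of the shortest basic coding transcript of each member were looked up in the transcripts of all other genes (GENCODE M21). Exact permutation tests served for the ratios of copies. The fit was tested on simulated data. It recovered 61.5% of genes changed 1.5-fold, 82.9% at 2-fold and 96.8% at 4-fold. Changes as small as the median of the ribosomal protein genes (a fold of 0.765) were not simulated. Alternatives were other scalings and filters, DESeq2 1.42.0, limma-voom 3.58.1, no robust option, a replicate block, pseudogene rows added, an adjusted p of 0.01 and libraries left out. After the data were seen, the stromal marker sum was also taken without Fn1.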

Additional observations from a re-analysis of the deposited data

Results flagged for a closer look

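In 4 of 70 groups of 4 values tested, a single library lay far from the others, where chance flags about 1 in 20 groups. Rps27a stood at 299.78 CPM in Mac 4, with the other Mac libraries between 319 and 322 CPM. Rps4x stood at 602.03 CPM in Mac 1, with the others between 638 and 644 CPM. Rpl3 stood at 392.43 CPM in Mac 1, with the others between 448 and 459 CPM. Rpl39l stood at 0.13754 CPM in E-Mac 2, from 2 counts, and at 0 in the other E-Mac libraries. The 3 Mac values were low ones and lay on the side of the E-Mac libraries.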

How the results depend on the processing

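The count of ribosomal protein genes that fell was 57 to 70 with 1 library left out (57 without E-Mac 2, 70 without E-Mac 3), against 65 with all 8. The count was 54 at an adjusted p of 0.01, 65 with DESeq2 and 65 with limma-voom. Shares of all genes called in the alternative fits are not reported here, so these counts have no background beside them. The median of the ribosomal protein genes stayed negative in each of these fits, from -0.42 to -0.31 with 1 library left out. Scaled by library size only, the medians were -0.53 for all and -0.53 for the small subunit, beside -0.15 for all genes tested, and 75 fell. The count that rose was 1 to 3 with 1 library left out, 3 with no filter and 4 without E-Mac 2 and 4. Apart from the scaling described next, 57 of the 81 genes kept their call and 76 their sign under every alternative run, while 11 that fell lost the call and 13 not called gained one under at least 1.

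Scaled on the ribosomal proteins themselves, 10 fell and 9 rose, with medians of 0.0050 for all, 0.0050 for the large and 0.0098 for the small subunit. By construction that removes the common fall. The sign turned for 38 of the 76 negative genes, among those described for Rplp1 (0.077), Rplp2 (0.0050), Rps6 (0.11), Rpl11 (0.25), Rps3 (0.13), Rps27a (0.063), Rpl38 (0.18), Rps27 (0.096), Rpl10 (0.087), Rpl22 (0.00064) and Rpl24 (0.080). Rpl36al, near 0, turned to -0.075 with upper-quartile factors, -0.12 with library size only, and ran from -0.18 to 0.30 with 1 library left out (below 0 without Mac 1, Mac 4, E-Mac 1 or E-Mac 4). The cause was not tested.

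With the replicate number as a replicate block, 62 fell and 1 rose (median -0.39). Same-numbered libraries did not deviate together (correlations -0.142 to 0.067), and differently numbered ones gave -0.131 to 0.144. The labels give no origin of a library, and these correlations cannot tell whether the numbers pair the samples.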
